A study of Homo sapiens with 16 samples.

Results

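The genes described here are 43 members of the autophagy machinery, its mitophagy branch and the factors that transcribe it, taken by symbol from the 26410 genes of the deposited tables. All 43 were matched, and all 43 passed the filter on low values in every comparison. The 16 RNA-seq libraries came from SH-SY5Y, an established human neuroblastoma line. Clones KO11 and KO28 are labelled TRPM2 KO, and clones Scr13 and Scr16 are controls made with a scrambled guide RNA. By the study's methods, the KO edit is a CRISPR deletion at the N-terminal end of TRPM2 that puts downstream codons out of frame. Both genotypes received Cas9 and a donor vector with GFP and puromycin markers, and each line was grown from a single cell, so a difference between 2 KO clones and 2 Scr clones cannot be told apart from a difference between clones. Each clone was sequenced as 2 biological replicates untreated and 2 after 24 h of doxorubicin, an anthracycline that poisons topoisomerase II and breaks DNA, which gave 4 libraries per group. The dose was 0.3 µM by the sample labels and the study's methods, while the series' design text gives 3 µM. The deposited column headers mark the untreated libraries 0h and the treated ones 24h. By the study's supplement, cells were kept in culture for 24 h either with the drug or without it. Reads counted on genes, as recovered from the deposited values, numbered 10481177 to 25086085 per library. Values are normalized CPM, CPM being read counts scaled to library size, here also adjusted for library composition, and in bulk RNA a change in every cell and a change in the share of cells cannot be told apart.

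Autophagy carries cytoplasm, protein aggregates and worn mitochondria to the lysosome. The ULK kinase complex starts it, the Beclin 1-VPS34 lipid kinase marks the membrane, ATG2 and ATG9 proteins supply lipid, and a ubiquitin-like conjugation system couples the LC3 and GABARAP proteins (the ATG8 family) to the growing membrane. Cargo receptors such as SQSTM1 bind both ubiquitin and ATG8 proteins, while BNIP3, BNIP3L, FUNDC1 and PINK1 mark mitochondria for removal. FOXO factors and the MiT/TFE factors TFEB and TFE3 are transcription factors that act on autophagy and lysosomal genes, and DRAM1, a lysosomal membrane protein, is a known target of p53. Much of the pathway is run by phosphorylation, cleavage and protein turnover, which RNA levels do not show.

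TRPM2 reads, counted over the whole gene, were more abundant without treatment in the KO than in the Scr libraries. The untreated libraries labelled TRPM2 KO had 1.93 and 2.23 normalized CPM (KO11) and 1.41 and 2.19 (KO28), against 0.118 and 0.115 in Scr13 and 0 and 0 in Scr16. After doxorubicin the values were 1.22 and 1.83 in KO11, 1.37 and 0.658 in KO28, 0.0594 and 0.0631 in Scr13, and 1.33 and 0.39 in Scr16. Such a count does not say whether the deleted part was read, so it does not check the edit, and the groups are called libraries labelled TRPM2 KO below. The neuroblastoma label held: the adrenergic factors PHOX2A, HAND2, GATA2, GATA3 and ISL1 and the enzyme DBH were well expressed (HAND2 at 1281 to 1765 normalized CPM), while TH and, in all libraries but KO11 untreated replicate 2 (26.4), CHGA were near 0. Of 9 adrenergic markers tested, 2 were higher and 1 lower in KO than in Scr libraries without treatment, and 1 was higher and 1 lower after doxorubicin. Of all genes, 2.3% were called higher and 2.54% lower without treatment, and 4.52% and 4.17% after doxorubicin. GATA3 was among those higher without treatment, with a log2 difference of 0.32 (adjusted p = 0.0344 by limma after Benjamini-Hochberg adjustment). The 4 listed immune, endothelial and epithelial markers in the tables summed to 0.511 to 4.49 normalized CPM per library.

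Promoter sequences of 2 members are shown, BNIP3 because it rose with doxorubicin and LAMP1 because it carries the E-box read by TFEB and TFE3. Each run is the 250 bases before the RefSeq start (GRCh38.p14), 5′ to 3′ on the gene's strand, with capitals on matches of either strand to TCACGTGA (the CLEAR element), CACGTG (the E-box inside it), GTAAACA (the forkhead box of FOXO factors), TGACGTCA (the cAMP response element) and the p53 decamer. The windows are chr10:131981924-131982173 (minus strand) for BNIP3, the end of which lies in the first exon by GENCODE 29, and chr13:113296989-113297238 (plus strand) for LAMP1.
BNIP3: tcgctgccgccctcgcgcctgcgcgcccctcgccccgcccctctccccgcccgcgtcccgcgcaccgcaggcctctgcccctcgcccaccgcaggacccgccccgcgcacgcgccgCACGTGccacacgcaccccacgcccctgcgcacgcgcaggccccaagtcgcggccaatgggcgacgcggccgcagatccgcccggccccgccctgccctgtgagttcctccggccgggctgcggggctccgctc
LAMP1: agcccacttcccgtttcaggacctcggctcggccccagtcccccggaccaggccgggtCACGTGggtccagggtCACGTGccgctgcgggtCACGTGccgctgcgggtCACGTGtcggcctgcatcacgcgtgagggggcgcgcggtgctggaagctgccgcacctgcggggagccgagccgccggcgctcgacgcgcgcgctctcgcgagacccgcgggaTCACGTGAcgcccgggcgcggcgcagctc
The E-box stood once in BNIP3 and 5 times in LAMP1, where 1 of the 5 lay in a CLEAR element. Of 35116 listed promoters of this length, 6.34% held the E-box, 0.854% the CLEAR element, 2.98% the forkhead box, 1.65% the cAMP response element and 5.57% the p53 decamer. The listing covered 37 of the 43 members with 49 starts. An E-box was found before a start of 4 of them (BNIP3, LAMP1, ATG3 and ATG14), a CLEAR element in LAMP1 alone, a forkhead box in CALCOCO2 alone, and a cAMP response element and a p53 decamer in GABARAPL1 alone. The GABARAPL1 window lies inside the gene span of GENCODE 29, which starts further upstream. These matches are letters in a window and say nothing of binding.

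The members were expressed over a wide range, and most varied little. Mean levels over the 16 libraries ran from 5.69 normalized CPM for WIPI1, a phosphoinositide-binding protein of the early membrane, to 180 for LAMP1, a structural protein of the lysosomal membrane. The highest library was less than 2 times the lowest for 35 of the 43 members. The median SD of log2(normalized CPM + 1) over the 16 libraries was 0.18 for the members and 0.25 for all 15325 genes tested, a comparison that does not allow for expression level. The other 8 were DRAM1, with 0.511 normalized CPM in its lowest library (9 reads) and 39.5 in its highest, TFEB (highest 7.97 times the lowest), FOXO1 (5.31 times), OPTN (3.49 times), WIPI1, GABARAPL1, MAP1LC3A and GABARAP (2.21 to 2.49 times). Levels of different genes were compared per kb of exon. In the untreated Scr libraries, the ATG8 genes stood at 27.2 ± 0.603 normalized CPM per kb for GABARAPL2, 15.4 ± 1.12 for MAP1LC3B, 13.9 ± 2.02 for MAP1LC3A, 4.08 ± 1.33 for GABARAP and 2.7 ± 0.256 for GABARAPL1 (SD, n = 4 each). MAP1LC3B and MAP1LC3A lay within their spread of each other, and so did GABARAP and GABARAPL1, while GABARAPL2 lay above all others. FOXO3, at 25.2 ± 1.59 normalized CPM per kb, was far above FOXO1, at 0.633 ± 0.266 (SD, n = 4 each).

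Libraries labelled TRPM2 KO, in which whole-gene TRPM2 reads were not lower than in Scr libraries before treatment, were compared with Scr libraries first without treatment and then after doxorubicin. Without treatment 2 of the 43 members passed the test, DRAM1 higher and FOXO3 lower. After doxorubicin 4 passed, DRAM1 and SQSTM1 higher and FOXO3 and TFEB lower. The test was limma on log2(normalized CPM + 1) with Benjamini-Hochberg adjustment over all genes at a threshold of 0.05, and it called 4.84% of 14364 genes without treatment and 8.69% of 14572 after doxorubicin, so the members' counts are close to the background. By direction, 2.3% of genes were called higher and 2.54% lower without treatment, and 4.52% and 4.17% after doxorubicin. The median log2 difference was -0.01 for the members and -0.01 for all genes without treatment, and 0.03 and 0.01 after doxorubicin. The 95% intervals of 38 members without treatment, and of 35 after doxorubicin, lay wholly within a 1.5-fold change either way. The fit between genotypes had no clone term, so its intervals and p-values treat the 2 replicates of a clone as independent. With values averaged per clone, DRAM1 alone passed without treatment, and DRAM1, FOXO3 and SQSTM1 passed after doxorubicin. The 4 KO and 4 Scr libraries did not overlap for 5 members in either state, against 9.29% and 13.2% of all genes. Besides those called, these were ULK2, GABARAPL1 and GABARAPL2 without treatment and ULK2 after doxorubicin.

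**Figure D1:**
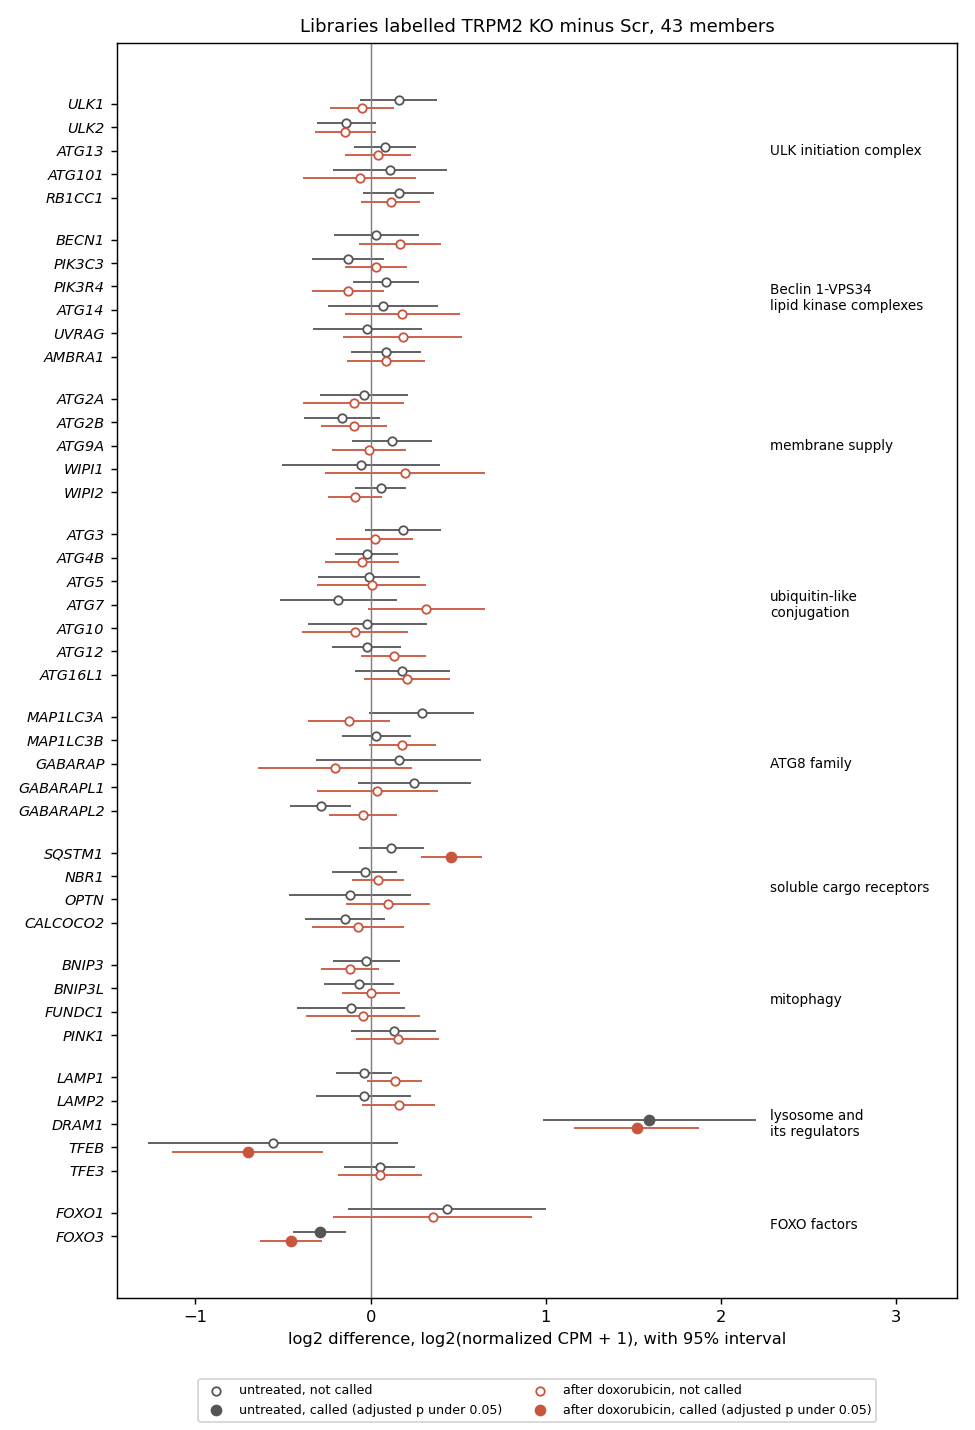
Log2 difference (libraries labelled TRPM2 KO minus Scr, on log2(normalized CPM + 1), x axis) of the 43 members with 95% intervals, grouped by role, without treatment (grey) and after doxorubicin (red), with filled points for calls at an adjusted p under 0.05. DRAM1 stands apart at 1.59 and 1.52, FOXO3 lies left of 0 in both states, and most other intervals cross 0.

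DRAM1 (ENSG00000136048; chromosome 12 of GRCh38, 101877351 to 102012130, plus strand) gave the largest difference of the 43. Without treatment it had 2.56 and 0.979 normalized CPM in Scr13, 2.03 and 0.511 in Scr16, 9.42 and 6.69 in KO11, and 3.96 and 5.69 in KO28. After doxorubicin it had 12.7 and 14.6 in Scr13, 10.1 and 8.44 in Scr16, 38.6 and 39.5 in KO11, and 32.8 and 26.7 in KO28. Every library labelled TRPM2 KO lay above every Scr library of the same treatment, and the untreated KO libraries reached the level of the lower treated Scr libraries in KO11 replicate 1 only. The group means were 6.44 ± 2.29 against 1.52 ± 0.939 without treatment and 34.4 ± 5.91 against 11.5 ± 2.74 after doxorubicin (SD, n = 4), ratios of 4.24 and 3. On the log2(normalized CPM + 1) scale, which understates changes of low genes, the differences were 1.59 (standard error, SE, of 0.291, adjusted p = 0.00152) and 1.52 (SE 0.171, adjusted p = 2.62e-06), by limma with Benjamini-Hochberg adjustment. In the exact two-sided permutation test p was 0.0286 for both, the smallest that 70 splits of 4 against 4 allow. Any 2 groups of 4 that do not overlap give this value, so here and below it restates the lack of overlap. The uncalled GABARAPL1 and GABARAPL2 also gave it without treatment. These splits treat the 2 replicates of a clone as independent, here and below, as does the limma fit between genotypes. With 2 clones against 2 no exact test can reach 0.05. The untreated call was kept in 20 of 21 alternatives and lost when no filter on low values was applied (adjusted p = 0.0666 by limma after Benjamini-Hochberg adjustment). DRAM1 overlaps AC084398.2 and AC079907.2 on the other strand and AC084398.1 and NENFP2 on its own. The library kit keeps strand, but the strand setting of the counting was not given in the sources used here.

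FOXO3 (ENSG00000118689; chromosome 6, 108559835 to 108684774, plus strand), a forkhead factor that acts on atrophy, autophagy and antioxidant genes, was lower in the libraries labelled TRPM2 KO. Without treatment Scr13 had 213 and 187 normalized CPM and Scr16 190.1 and 189.8, against 168 and 158 in KO11 and 145 and 166 in KO28. After doxorubicin Scr13 had 178 and 191 and Scr16 229 and 221, against 154 and 152 in KO11 and 154 and 133 in KO28. The groups did not overlap in either state, and the treated Scr16 libraries lay above the treated Scr13 libraries. The differences were -0.29 (SE 0.0722, adjusted p = 0.0199) and -0.45 (SE 0.0854, adjusted p = 0.00104) by limma with Benjamini-Hochberg adjustment, and p was 0.0286 in the exact permutation test for each. The untreated call is the weaker: it was lost in 8 of 21 alternatives (without Scr13 replicate 1, KO11 replicate 2 or KO28 replicate 1, without clone Scr13, Scr16 or KO28, with clone means and with no filter on low values), where the adjusted p by limma reached 0.282 without clone Scr13, while the call after doxorubicin was kept in all 21. FOXO1, the other FOXO factor among the members, was low (2.13 to 11.3 normalized CPM) and did not pass the test. Its log2 difference was 0.44 without treatment and 0.35 after doxorubicin.

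SQSTM1 (p62; ENSG00000161011; chromosome 5, 179806398 to 179838078, plus strand), the receptor for ubiquitinated cargo that is itself degraded by autophagy, differed after doxorubicin. Scr13 then had 109.8 and 103 normalized CPM and Scr16 103 and 85.1, against 143 and 132 in KO11 and 132 and 144 in KO28. All 4 treated libraries labelled TRPM2 KO lay above all 4 treated Scr libraries. The difference was 0.46 (SE 0.0846, adjusted p = 8.38e-04 by limma after Benjamini-Hochberg adjustment), from means of 138 ± 6.81 and 100.1 ± 10.5 (SD, n = 4), and p was 0.0286 in the exact permutation test. Without treatment the values were 97.6 and 89.2 in Scr13, 85.5 and 82.4 in Scr16, 91.3 and 87.1 in KO11, and 95.2 and 113 in KO28. These groups overlapped, with a difference of 0.12 (95% interval of -0.07 to 0.3). SQSTM1 overlaps MGAT4B and MRNIP on the other strand, which differed by 0.11 and 0.25 after doxorubicin and did not pass the test. The other soluble receptors NBR1, OPTN and CALCOCO2 did not pass it in either state.

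TFEB (ENSG00000112561; chromosome 6, 41683978 to 41736259, minus strand), the best known activator of lysosomal genes, was low and differed after doxorubicin. It had 8.85 and 7.57 normalized CPM in Scr13 and 10.3 and 10.1 in Scr16, against 4.42 and 5.67 in KO11 and 4.64 and 6.4 in KO28. The treated groups did not overlap. The difference was -0.70 (SE 0.207, adjusted p = 0.0361 by limma after Benjamini-Hochberg adjustment, and exact permutation p = 0.0286). Leaving out any 1 of 6 of the 8 treated libraries (all but Scr13 replicate 2 and KO28 replicate 2), clone KO11, KO28 or Scr16, using clone means or dropping the filter on low values ended the call, though the direction stayed the same. Without treatment TFEB had 7.99 and 6.74 in Scr13 but 1.29 and 8.01 in Scr16, against 2.53 and 2.65 in KO11 and 3.29 and 4.52 in KO28. Scr16 replicate 1 (21 reads) lay below every library labelled TRPM2 KO, and the groups overlapped on account of it. The difference of -0.56 did not pass the test (95% interval of -1.27 to 0.16), was -1.03 and passed it without that library, and was -0.12 without clone Scr13. TFE3, its close relative, was at 38.7 to 58.9 normalized CPM in all 16 libraries and differed by 0.05 in each state. AL035588.1 overlaps TFEB on the other strand.

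**Figure D2:**
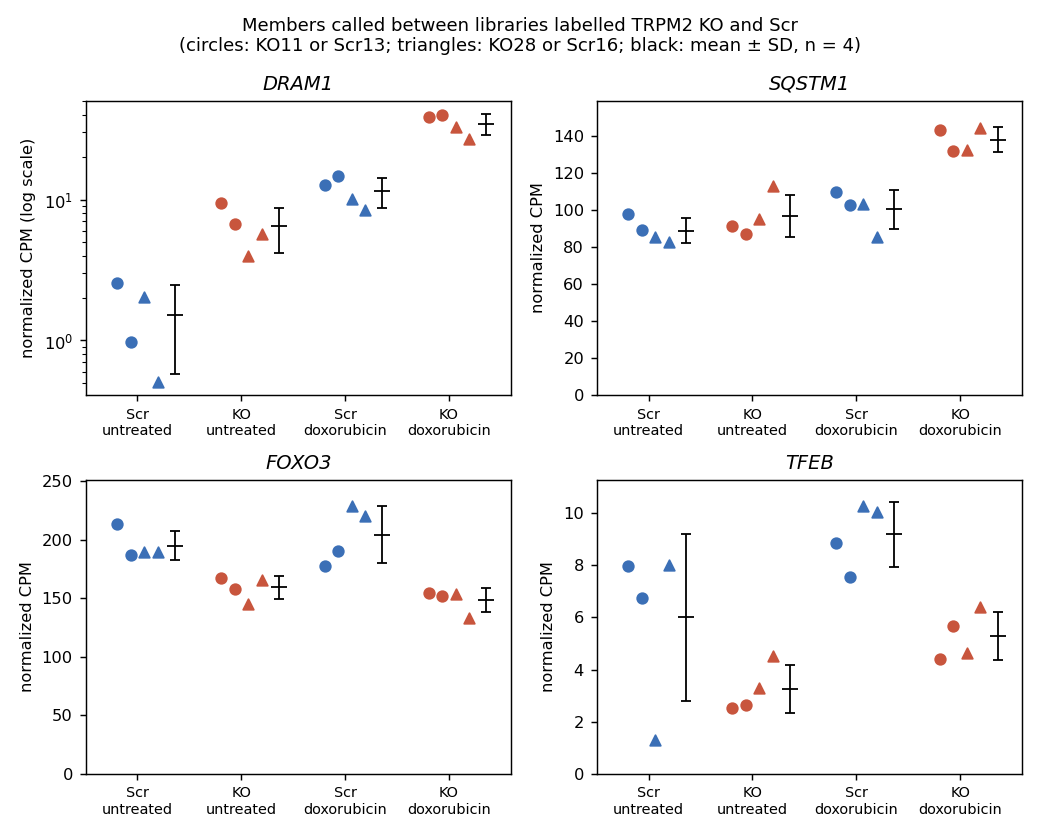
Normalized CPM (y axis, logarithmic for DRAM1) of the 4 members called between genotypes in each of the 16 libraries, by group, with circles for KO11 and Scr13, triangles for KO28 and Scr16, and the mean ± SD of 4 libraries in black. DRAM1 is higher and FOXO3 lower in the libraries labelled TRPM2 KO in both states, SQSTM1 separates after doxorubicin, and the single low TFEB value of 1.29 is Scr16 untreated replicate 1.

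Markers of mesenchymal neuroblastoma moved with the same split of clones. Of the 9 listed markers in the tables, 4 were higher and 1 lower in KO than in Scr libraries without treatment, and of the 8 tested after doxorubicin 5 were higher and 1 lower, beside 2.3% and 2.54% of all genes without treatment and 4.52% and 4.17% after doxorubicin. FN1 (fibronectin), YAP1 and CD44 differed by 2.14, 2.18 and 1.76 on the log2 scale after doxorubicin, and TWIST1, the 1 that was lower, by -0.64 (adjusted p = 8.77e-06, 1.28e-05, 1.56e-04 and 6.68e-06 by limma after Benjamini-Hochberg adjustment). VIM was the most abundant of the list in the libraries labelled TRPM2 KO, at 369 ± 44.9 normalized CPM untreated, and TWIST1 in the Scr libraries, at 260 ± 9.86 (SD, n = 4). The list summed to 881, 835, 1039 and 994 normalized CPM in the untreated KO11 and KO28 libraries and to 893, 525, 617 and 689 in Scr13 and Scr16. After doxorubicin it summed to 1043, 839, 1156 and 962 in the KO libraries and to 649, 562, 822 and 733 in the Scr libraries. The summed level overlapped between genotypes without treatment and not after doxorubicin. No marker was at 0 in a whole group, and COL1A2 was the lowest, at 0 to 3.03 normalized CPM. Mitochondrial genes took 5.42% to 8.1% of reads in the treated libraries labelled TRPM2 KO and 4.86% to 5.83% in the treated Scr libraries, and 3.87% to 6.41% and 4.19% to 4.89% in the untreated ones. The part of the marker shift and of the mitochondrial reads in the 4 differences was not tested.

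In the core machinery no difference between genotypes passed the test. This held in both states for each member of the ULK initiation complex (5), the Beclin 1-VPS34 complexes (6), the membrane supply group (5), the conjugation system (7), the ATG8 family (5) and the mitophagy group (4), also for ULK2, GABARAPL1 and GABARAPL2, whose groups did not overlap as given above. Their log2 differences ran from -0.29 (GABARAPL2) to 0.29 (MAP1LC3A) without treatment and from -0.21 (GABARAP) to 0.32 (ATG7, the E1-like enzyme of both conjugation systems) after doxorubicin. BECN1, the scaffold of the lipid kinase, differed by 0.03 and 0.17, and ULK1, the kinase that starts the process, by 0.16 and -0.05. GABARAPL2, an ATG8 protein, was nearest the threshold and is named after its values were seen. Untreated it had 79.7 and 83.5 normalized CPM in Scr13 and 83.3 and 83 in Scr16, against 74.1 and 66 in KO11 and 69.3 and 60.9 in KO28. The groups did not overlap, with a difference of -0.29 (SE 0.0825, adjusted p = 0.0512 by limma after Benjamini-Hochberg adjustment). With CPM on library size alone, with DESeq2, without KO11 replicate 1 or without clone KO11 it passed the threshold.

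Other genes of the pathway were counted from lists. Of 19 tested genes of other core autophagy, libraries labelled TRPM2 KO had 1 higher without treatment and 3 after doxorubicin, with none lower, while of all genes 2.3% and 4.52% were higher and 2.54% and 4.17% lower. These were TP53INP1, a p53-induced protein that binds ATG8 proteins (difference of 0.45 untreated and 0.73 treated, adjusted p = 0.0125 and 7.61e-07), its relative TP53INP2 (0.31 treated, adjusted p = 0.0409) and SH3GLB1 (0.28 treated, adjusted p = 0.0217), all by limma with Benjamini-Hochberg adjustment. TP53INP1 had 168 ± 8.52 against 101 ± 5.08 normalized CPM (SD, n = 4) after doxorubicin. Of 20 other cargo and mitophagy receptors, none passed without treatment and 2 were higher after doxorubicin (4.52% of all genes), RETREG1, an endoplasmic reticulum receptor (0.84), and NCOA4, the ferritin receptor (0.28). The medians of both lists lay between -0.03 and 0.04 on the log2 scale in both states.

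Among 28 tested lysosomal genes of the CLEAR network, the set that TFEB is known to act on, 1 was higher without treatment, and 5 were higher and 1 lower after doxorubicin (of all genes, 2.3% were higher and 2.54% lower without treatment, and 4.52% and 4.17% after doxorubicin, also for the lists that follow). ATP6V0E1, a proton pump subunit, had 35.5 ± 1.04 normalized CPM in the treated libraries labelled TRPM2 KO against 24.5 ± 2.28 in the treated Scr libraries (difference of 0.52, adjusted p = 0.00508). NPC2, a cholesterol carrier, differed by 0.46 and CTSB, the protease cathepsin B, by 0.46 (adjusted p = 0.0209 and 1.08e-04 by limma after Benjamini-Hochberg adjustment). CTSF, another cathepsin and the 1 that was lower, differed by -0.34 and is named after its values were seen. The list's median was 0.03 without treatment, against -0.01 for all genes. After doxorubicin it was 0.13 against 0.01. TFEB was lower in the same libraries, and a link between TFEB and these genes was not tested.

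Of 32 tested genes of mTORC1 and AMPK signalling, 1 was higher without treatment, and 3 were higher and 1 lower after doxorubicin. SESN1 and SESN2, p53-linked inhibitors of mTORC1, had 106 ± 10 and 65.4 ± 5.46 normalized CPM in the treated libraries labelled TRPM2 KO against 66.1 ± 12.3 and 42.8 ± 11 in the treated Scr libraries (differences of 0.69 and 0.63, adjusted p = 2.68e-04 and 0.00403 by limma after Benjamini-Hochberg adjustment). DDIT4, another mTORC1 inhibitor, was higher untreated (0.61, adjusted p = 0.0256) and differed by -0.00 after doxorubicin. STK11, the kinase upstream of AMPK and the 1 that was lower, differed by -0.29 and is named after its values were seen.

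Of 19 tested FOXO relatives and FOXO target genes, 1 was higher and 2 lower without treatment, and 1 was higher and 3 lower after doxorubicin. CAT (catalase) had 18.1 ± 1.09 normalized CPM in the treated libraries labelled TRPM2 KO against 27.1 ± 4.89 in the treated Scr libraries (difference of -0.54, adjusted p = 0.0164). GADD45A and BBC3 (PUMA), which p53 also induces, were higher, GADD45A after doxorubicin (0.53, adjusted p = 8.87e-04) and BBC3 without treatment (0.77, adjusted p = 0.00387 by limma after Benjamini-Hochberg adjustment). Lower besides CAT, and named after their values were seen, were IRS2, an insulin receptor adaptor, in both states (-0.31 and -0.43), the cell cycle inhibitor CDKN1B untreated (-0.39) and TXNIP after doxorubicin (-0.35). The list's median was -0.05 in both states. Of the MiT/TFE relatives, neither of the 2 tested passed.

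Doxorubicin was then compared with no treatment within each genotype, in 1 fit over the 16 libraries with clone as a term. In the Scr clones 6 members rose and none fell, and in the clones labelled TRPM2 KO, in which whole-gene TRPM2 reads do not check the edit, 7 rose and none fell. Of all 15325 genes, limma called 12.6% in the Scr clones (7.09% higher and 5.53% lower) and 17.8% in the clones labelled TRPM2 KO (10.2% higher and 7.6% lower). The balance of directions over all genes depended on scaling: with CPM on library size alone, 47.8% of calls in the Scr clones and 48.5% in the clones labelled TRPM2 KO were higher, against 56.2% and 57.3%. DRAM1, OPTN, BNIP3, BNIP3L and GABARAPL1 rose in both genotypes, MAP1LC3A was called in the Scr clones, and SQSTM1 and WIPI1 in the clones labelled TRPM2 KO. The mitochondrial share of reads, given above, had a higher range with doxorubicin in both genotypes, and its part in these changes was not tested. The 2 contrasts use different libraries but share 1 estimate of the spread. Median changes were 0.06 and 0.09 on the log2 scale for the members and -0.01 and 0.02 for all genes. Treated and untreated libraries did not overlap for 9 members in each genotype, against 16.4% and 19.1% of all genes.

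**Figure D3:**
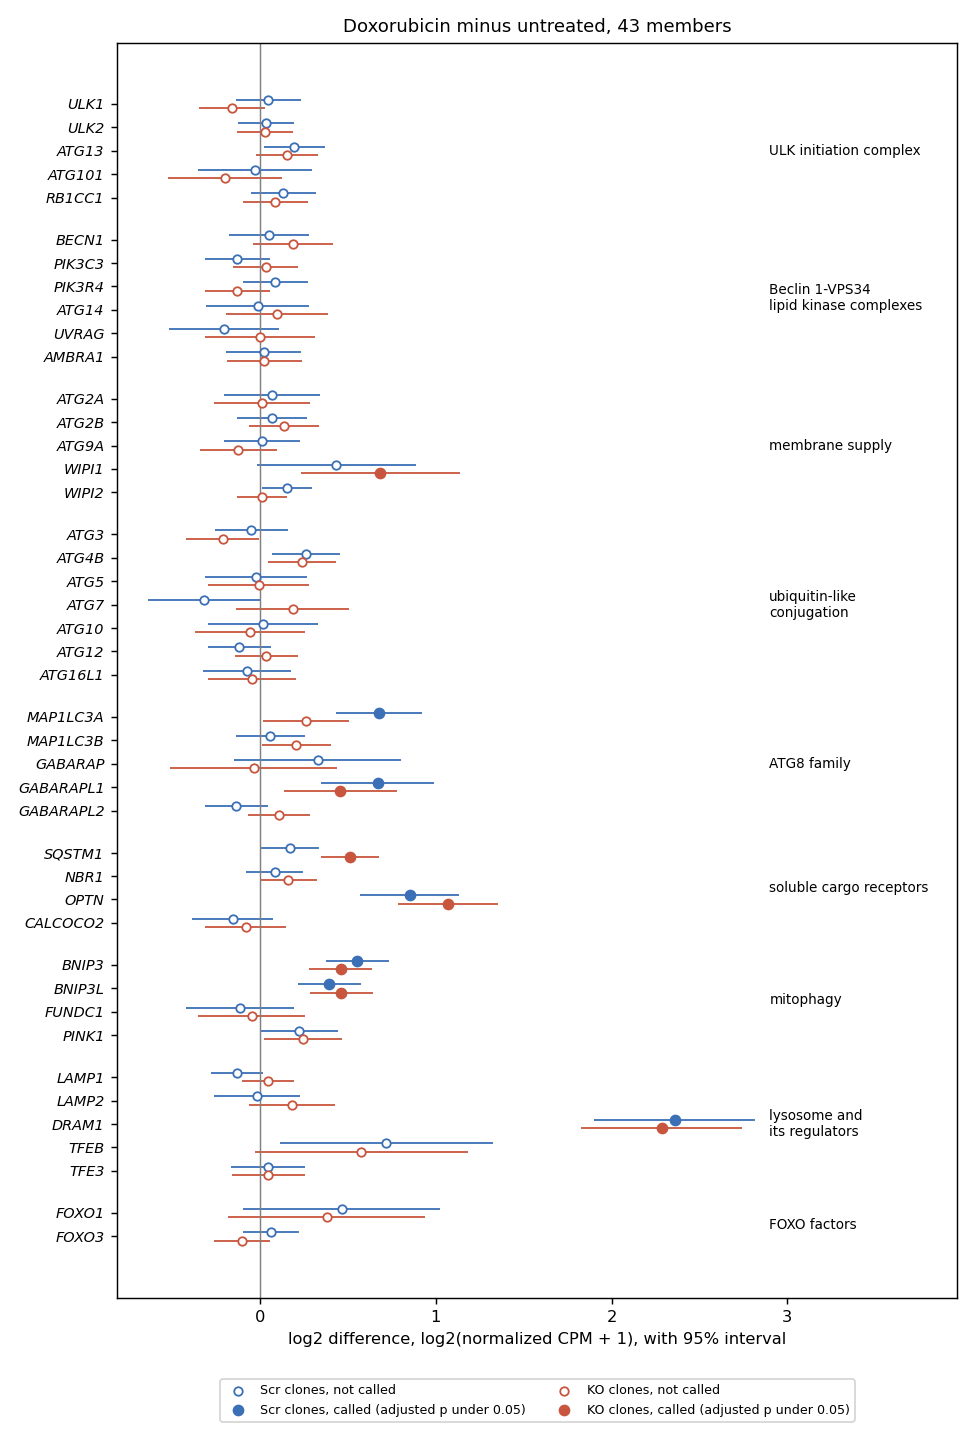
Log2 change (doxorubicin minus untreated, on log2(normalized CPM + 1), x axis) of the 43 members with 95% intervals, grouped by role, in the Scr clones (blue) and the clones labelled TRPM2 KO (red), with filled points for calls at an adjusted p under 0.05. DRAM1 rose by 2.36 and 2.29 and OPTN by 0.85 and 1.07, every call lies right of 0, and the initiation, lipid kinase and conjugation groups hold no call by limma with all libraries.

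DRAM1 rose most. From the values given above, its mean went from 1.52 to 11.5 normalized CPM in the Scr clones and from 6.44 to 34.4 in the clones labelled TRPM2 KO, ratios of 7.54 and 5.34. The log2 changes were 2.36 (SE 0.224, adjusted p = 7e-09) and 2.29 (SE 0.224, adjusted p = 8.18e-09), by limma with Benjamini-Hochberg adjustment. Treated and untreated libraries did not overlap in either genotype.

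OPTN (optineurin; ENSG00000123240; chromosome 10, 13099449 to 13138308, plus strand), a receptor for ubiquitinated mitochondria and bacteria, came next. It had 33.2 and 28 normalized CPM in untreated Scr13, 23.4 and 24.1 in Scr16, 29.3 and 17.4 in KO11, and 32.8 and 22.2 in KO28. After doxorubicin it had 60.8 and 50.2 in Scr13, 48.3 and 40.2 in Scr16, 49.5 and 60.5 in KO11, and 52.6 and 49.7 in KO28. Every treated library lay above every untreated library. The changes were 0.85 (SE 0.139, adjusted p = 6.67e-05) in the Scr clones and 1.07 (adjusted p = 1.47e-06) in the clones labelled TRPM2 KO, by limma with Benjamini-Hochberg adjustment. CCDC3, which overlaps OPTN on the other strand at a mean of 19.8 normalized CPM, changed by 0.81 and 1.04, and without the strand setting of the counting the reads of the pair cannot be told apart. Of the other receptors, SQSTM1 rose by 0.51 (adjusted p = 2.65e-05) in the clones labelled TRPM2 KO, and its change of 0.17 in the Scr clones did not pass the test (adjusted p = 0.179 by limma after Benjamini-Hochberg adjustment). MRNIP, its neighbour on the other strand, rose by 0.41 in the clones labelled TRPM2 KO.

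Among the mitophagy genes, BNIP3 and BNIP3L (NIX), related receptors of the outer mitochondrial membrane, rose. BNIP3 (ENSG00000176171; chromosome 10, 131966455 to 131982013, minus strand) had 123 and 96.7 normalized CPM in untreated Scr13, 118 and 100.4 in Scr16, 114 and 107 in KO11, and 116 and 93.1 in KO28. After doxorubicin it had 183 and 142 in Scr13, 158 and 161 in Scr16, 148 and 149.9 in KO11, and 151 and 141 in KO28. The treated libraries all lay above the untreated ones, with changes of 0.55 (SE 0.0878, adjusted p = 4.58e-05) and 0.46 (adjusted p = 3.26e-04), by limma with Benjamini-Hochberg adjustment. The annotation holds 39 genes named as BNIP3 pseudogenes, so part of its reads may have been split among copies. BNIP3L (ENSG00000104765), seventh in size among the called members and named after its values were seen, had 126 to 173 normalized CPM in the untreated and 172 to 206 in the treated Scr libraries, and 123 to 159 and 181 to 216 in those labelled TRPM2 KO. It rose by 0.39 and 0.46 (adjusted p = 0.00256 and 3.11e-04 by limma after Benjamini-Hochberg adjustment), with an overlap between 1 treated and 1 untreated library in the Scr clones and none in the clones labelled TRPM2 KO. Of its opposite-strand neighbours, SDAD1P1 changed by 1.05 and 0.56 (adjusted p = 0.00411 and 0.117 by limma after Benjamini-Hochberg adjustment), at a mean of 7.3 normalized CPM, and PNMA2, at 207, by 0.21 and 0.20, without passing the test. Without clone Scr13, or without KO28, its call in that genotype was lost. PINK1, the kinase that flags damaged mitochondria, and FUNDC1, another outer membrane receptor, did not pass in either genotype. PINK1 changed by 0.22 and 0.24 and FUNDC1 by -0.11 and -0.05.

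In the ATG8 family, GABARAPL1 (ENSG00000139112; chromosome 12, 10212458 to 10223130, plus strand) was called in both genotypes. It had 10.7 and 12.4 normalized CPM in untreated Scr13, 11.2 and 9.88 in Scr16, 13.2 and 12.7 in KO11, and 14.6 and 12.6 in KO28. After doxorubicin it had 24.5 and 17.7 in Scr13, 17.9 and 13.7 in Scr16, 19.6 and 17.1 in KO11, and 20.9 and 17 in KO28. Treated and untreated libraries did not overlap within a genotype, and the changes were 0.67 (adjusted p = 0.00381) and 0.46 (adjusted p = 0.0396), by limma with Benjamini-Hochberg adjustment. The first was lost without clone Scr13, and the second in 10 of 19 alternatives, among them the removal of any 1 of KO11 untreated replicates 1 and 2, KO11 treated replicates 1 and 2, KO28 untreated replicate 2 and KO28 treated replicate 1.

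MAP1LC3A (LC3A; ENSG00000101460; chromosome 20, 34546854 to 34560345, plus strand) had 25.5 and 27.9 normalized CPM in untreated Scr13, 19.5 and 24.8 in Scr16, 23.7 and 30 in KO11, and 37.7 and 29.8 in KO28. After doxorubicin it had 41.2 and 45.6 in Scr13, 38.5 and 33 in Scr16, 36.2 and 35 in KO11, and 38.3 and 34.9 in KO28. The Scr libraries did not overlap between treatments, whereas the untreated KO28 replicate 1 lay among the treated libraries. The change was 0.68 (adjusted p = 1.82e-04) in the Scr clones and 0.26 (adjusted p = 0.134) in the clones labelled TRPM2 KO, by limma with Benjamini-Hochberg adjustment. MAP1LC3B, the LC3 gene most used as an autophagy marker, changed by 0.06 and 0.21, GABARAP by 0.33 and -0.04 and GABARAPL2 by -0.13 and 0.11, and none of the 3 passed the test.

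WIPI1 (ENSG00000070540; chromosome 17, 68420948 to 68457513, minus strand) was low. It had 5.2 and 3.4 normalized CPM in untreated Scr13, 5.16 and 4.26 in Scr16, 5.18 and 4.22 in KO11, and 3.42 and 4.3 in KO28. After doxorubicin it had 7.31 and 6.18 in Scr13, 8.46 and 4.22 in Scr16, 7.87 and 7.05 in KO11, and 8.11 and 6.76 in KO28. Treated libraries labelled TRPM2 KO lay above the untreated ones, while Scr16 treated replicate 2 stayed at the untreated level. The change was 0.68 (adjusted p = 0.0298) in the clones labelled TRPM2 KO and 0.43 (adjusted p = 0.216) in the Scr clones, by limma with Benjamini-Hochberg adjustment. The call was lost in 8 of 19 alternatives, including the removal of either KO clone and of any 1 of KO11 untreated replicate 2, KO11 treated replicate 1, KO28 untreated replicate 1 and both treated KO28 replicates.

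**Figure D4:**
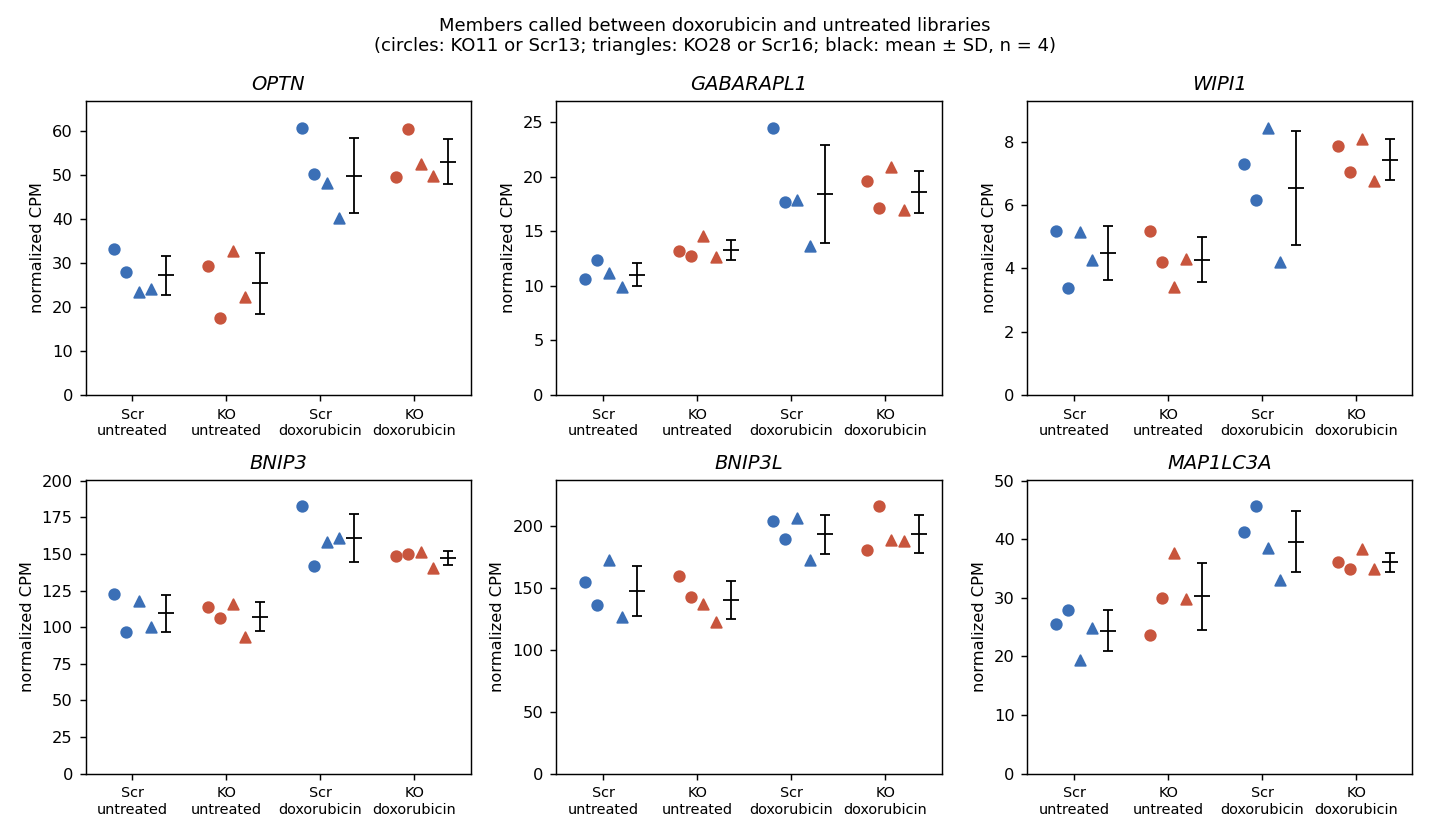
Normalized CPM (y axis, from 0) of 6 members called with doxorubicin besides DRAM1 and SQSTM1 in each of the 16 libraries, by group, with circles for KO11 and Scr13, triangles for KO28 and Scr16, and the mean ± SD of 4 libraries in black. OPTN and BNIP3 separate treated from untreated libraries in both genotypes, and WIPI1 stays at 4.22 in Scr16 treated replicate 2.

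The rest of the machinery did not pass the test with doxorubicin. By limma, none of the 5 ULK complex genes, 6 Beclin 1-VPS34 genes or 7 conjugation genes was called in either genotype, with changes between -0.32 (ATG7, Scr clones) and 0.26 (ATG4B, the protease that trims ATG8 proteins, Scr clones). DESeq2 called ATG4B in the Scr clones, and limma called it without Scr13 or Scr16 treated replicate 2 in the Scr clones and without KO11 treated replicate 2 in the clones labelled TRPM2 KO. ATG13, a ULK complex subunit, was called in the Scr clones without Scr16 treated replicate 1. LAMP1 changed by -0.13 and 0.05, LAMP2 by -0.02 and 0.18, and ATG3, the E2-like enzyme of ATG8 conjugation, by -0.05 and -0.21. TFEB changed by 0.72 and 0.58 and FOXO1 by 0.46 and 0.38, with wide intervals (0.11 to 1.33 and -0.03 to 1.18 for TFEB), and TFE3 by 0.04 and 0.05. The TFEB change in the Scr clones was 0.21 without Scr16 untreated replicate 1, and 1.00 and past the threshold without Scr16 untreated replicate 2. FOXO3 changed by 0.06 and -0.10.

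In the lists with doxorubicin, 2 of 19 other core autophagy genes rose in the Scr clones and 3 in the clones labelled TRPM2 KO, and none fell. TP53INP1 rose by 1.02 and 1.30 (adjusted p = 2.05e-10 and 7.2e-13 by limma after Benjamini-Hochberg adjustment). Of 20 other cargo and mitophagy receptors 2 and 3 rose. Of 28 lysosomal genes 4 and 7 rose and 0 and 1 fell, of 32 mTORC1 and AMPK genes 4 and 4 rose and 1 and 1 fell, and of 20 FOXO relatives and targets 7 and 6 rose and 1 and 2 fell. Of all genes, 7.09% and 10.2% rose and 5.53% and 7.6% fell. SESN1 rose by 0.95 and 1.26, SESN2 by 1.52 and 1.65, BBC3 by 1.86 and 1.37 and GADD45A by 1.55 and 1.68. All are genes that p53 is known to induce, and the part of p53 in these changes was not tested. IRS2 rose by 0.43 and 0.32, while CAT fell by 0.53 in the clones labelled TRPM2 KO.

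No member passed the test of whether the difference between libraries labelled TRPM2 KO and Scr changed with doxorubicin, so the calls made in 1 genotype only are not shown to differ between genotypes. Of all 15325 genes, limma called 4 (0.0261%). Among the members 3 had an unadjusted p under 0.05 by limma, against 8.31% of all genes. These were SQSTM1, with a change of 0.34 (SE 0.114, adjusted p = 0.371), MAP1LC3A, with -0.42 (adjusted p = 0.494), and ATG7, with 0.50 (adjusted p = 0.555), by limma with Benjamini-Hochberg adjustment. EdgeR and DESeq2 each called none of the 43 and had 3 at an unadjusted p under 0.05, given here as counts only. For DRAM1 the change was -0.07 (95% interval of -0.72 to 0.57) on the log2(normalized CPM + 1) scale, which understates changes of low genes. Its ratio of KO to Scr means was 4.24 untreated and 3 after doxorubicin. For 32 of the 43 members the interval lay within a 1.5-fold change either way.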

How the data were processed

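RNA was poly(A)-selected and sequenced with a directional kit. According to the submitters' processing notes, reads were demultiplexed with bcl2fastq, aligned with HISAT2 2.1.0 to GRCh38, counted per gene with HTSeq and normalized with edgeR, and the strand setting of the counting was not given in the sources used here. The deposited signal values are CPM normalized by the authors, in 1 table per treatment on 1 common scale. Dividing by the value of 1 read gave whole reads for 100% of values (tolerance 0.001), so the number of reads counted on genes was recovered. The deposited tables also hold the authors' own log2 fold changes, p-values and a ranking score from edgeR comparisons of KO with Scr, and none of these was used. 95.0% of the 26410 IDs were paired with a symbol.

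Values were tested as log2(normalized CPM + 1) with limma 3.58.1 (R 4.3.3), with Benjamini-Hochberg adjustment over all genes at 0.05. Genotypes were compared within each treatment on 8 libraries, without a clone term (a gene needed 1 normalized CPM or more in 4 libraries). Doxorubicin and the change of the genotype difference were tested in 1 fit of 16 libraries with clone as a term. Exact two-sided permutation tests compared 4 with 4 libraries. Alternatives were edgeR 4.0.16, DESeq2 1.42.0, other pseudocounts, filters and scalings, a replicate block, and leaving out each library or clone. The study's methods call the 2 libraries per clone and treatment biological replicates. A count of 3 reads corresponds to 0.118 to 0.285 normalized CPM by library. Members and lists were chosen with earlier results of these data known. Named genes are members called between genotypes, the 6 with the largest doxorubicin change among those called, and 3 per list with the largest called genotype difference. Positions and overlaps are from GENCODE 29. Some marker genes are not reported here.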

Additional observations from a re-analysis of the deposited data

Results flagged for a closer look

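There were 3 values that stood apart from the other libraries of their group by Dixon's 95% criterion, out of 48 groups of 4 examined, and chance alone sets apart about 1 group in 20. FOXO3 in KO28 doxorubicin replicate 2, at 133 normalized CPM, was the lowest of its group, whose other libraries had 152 to 154. FOXO3 in Scr13 untreated replicate 1, at 213, was the highest of its group, whose other libraries had 187 to 190.1, and without it the untreated FOXO3 difference no longer passed the test. GABARAPL2 in Scr13 untreated replicate 1, at 79.7, was the lowest of its group, whose other libraries had 83 to 83.5.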

How the results depend on the processing

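Each genotype was represented by 2 clones, which limits every genotype call, and depth limits DRAM1 and TFEB most, whose lowest libraries held 9 and 21 reads. The 2 members called without treatment became 0 with no filter on low values (DRAM1 at an adjusted p of 0.0666 by limma after Benjamini-Hochberg adjustment) and 1, DRAM1, without clone Scr13, Scr16 or KO28 and with clone means. Leaving out 1 library at a time gave 1 to 3 calls without treatment: FOXO3 was lost without KO11 replicate 2, Scr13 replicate 1 or KO28 replicate 1, TFEB was gained without Scr16 replicate 1, and GABARAPL2 was gained without KO11 replicate 1. After doxorubicin there were 3 to 4 calls, with DRAM1, SQSTM1 and FOXO3 called in all 21 alternatives and TFEB in 10. Doxorubicin gave 6 to 7 calls in the Scr clones and 5 to 7 in the clones labelled TRPM2 KO when 1 library was left out, with 4 in the former without clone Scr13 (GABARAPL1 and BNIP3L lost) and 4 in the latter without clone KO28. Calls gained with doxorubicin were ATG4B, ATG13 and TFEB in the Scr clones and ATG4B and PINK1 in the clones labelled TRPM2 KO, each in fits without 1 library, and ATG4B in the Scr clones by DESeq2. The change of the genotype difference gave 0 calls in every such fit. Same-numbered replicates did not deviate together (28 pairs, correlations of -0.10 to 0.12, 1 over 0.1), and with the replicate number as a block the members called were 2, 4, 6, 7 and 0, with no member call changed. Of 1197 recomputed differences of named members, 44 changed sign, none of them called. Counts over all genes moved by more than 1.5 times without treatment (695 against 368 with no filter, 362 without Scr13 and 364 without Scr16), after doxorubicin (1266 against 574 without KO11 and 629 without KO28), with doxorubicin in the Scr clones (1935 against 564 without Scr13, where 68.8% rather than 56.2% of calls were higher, and 902 without Scr16) and in the clones labelled TRPM2 KO (2727 against 945 without KO11 and 1417 without KO28). For the change of the difference the 4 calls became 10 with edgeR, 58 with DESeq2 (34.5% higher against 50% in the main test), 25 with the replicate block, 2 with no filter, 0 to 10 when a clone was left out and 1 to 19 when a library was left out. The causes were not tested.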
